A study of Homo sapiens with 6 samples.

Results

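The SAS-Fucci line derives from a human squamous cell carcinoma of the tongue and reports the cell-cycle phase by fluorescence. RNA-Seq of these cells read the early phase of IGFBP-3 knockdown in 2 libraries taken 48 h after transfection with IGFBP3 siRNA #1 (48 h) and 2 libraries from cells given a non-targeted control siRNA (Cont). Both siRNAs were delivered by the same lipofection method, and 2 other libraries came from knockdown cells kept for 72 h, which received fresh medium after 48 h. The sources used here do not state outright when the control cells were harvested. Some wording of the study can be read as 72 h. Control cells kept for 72 h would also have received the fresh medium that 48 h cells did not. Knockdown, time after transfection and medium exchange therefore cannot be told apart with certainty. The sources also do not give whether replicate libraries stem from separate cultures. The p-values below therefore measure only the spread between libraries, which may be technical. RNA was sequenced for only 1 siRNA against IGFBP3, and an effect of IGFBP-3 loss cannot be told apart from any other effect of that siRNA. Genes entered the comparison by their level alone. Of 66351 gene models, 59520 carried a gene name, and 11063 of these reached 1 FPKM (assigned reads per length of the gene model and per library total) in at least 2 of the 4 libraries and were tested.

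IGFBP-3 is a secreted protein that binds insulin-like growth factors and also acts on cells without them. The programs examined here are groups of genes that are commonly regulated together. ATF4 is a transcription factor made when cells lack amino acids or meet other stress, and it switches on enzymes, transporters and tRNA synthetases for amino acids. SREBP factors drive the genes of cholesterol and fatty acid synthesis. Squamous epithelium expresses KRT5 and KRT14 in its basal layer, KRT6 and KRT17 under stress, and cornified envelope genes as it differentiates, while simple epithelia rely on KRT8 and KRT18. Mitotic genes peak in G2 and M phase, and many carry a short promoter element called the cell-cycle genes homology region (CHR).

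The 4 libraries held between 17431000 and 20363000 assigned reads. The root mean square difference in log2(FPKM + 1) was 0.198 between the 48 h libraries and 0.207 between the control libraries, against 0.376 to 0.389 across groups. Log2 fold changes below are 48 h minus control on that log2(FPKM + 1) scale, which draws the changes of weakly expressed genes toward 0, and adjusted p values are from limma. At an adjusted p under 0.05, 1862 genes (16.8%) had lower and 956 (8.64%) had higher levels at 48 h, and the median over all tested genes was -0.035. Quantile normalization gave 1446 lower and 1417 higher genes, so the excess of lower genes depended on the scaling. The change exceeded 1 in size for 152 of the lower genes (1.37% of all tested genes) and 50 of the higher genes (0.452%). Dropping control replicate 1 left 986 lower and 426 higher calls, while dropping the other control left 1094 and 516. The fit lacking 48 h replicate 1 made 1033 and 413 such calls, and that lacking replicate 2 made 755 and 306. With 2 libraries per group, 0.333 is the smallest p of an exact two-sided permutation test, so each call rests on the spread that limma pools over genes and over all 6 libraries.

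**Figure D1:**
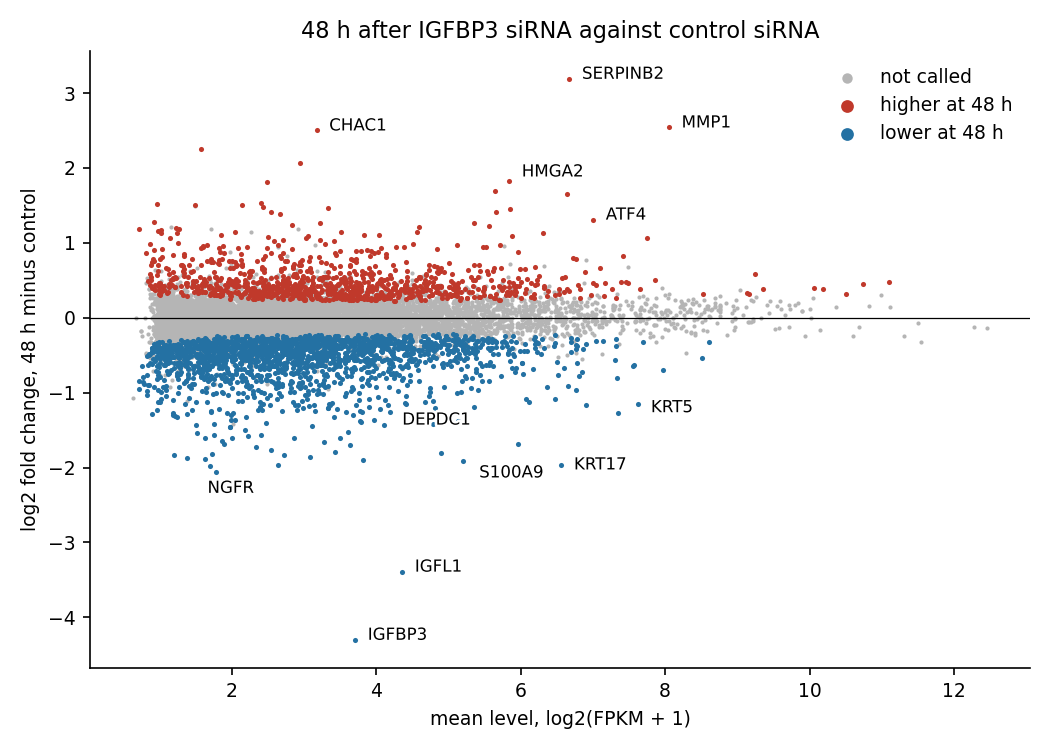
Log2 fold change (48 h minus control, vertical axis) against the mean level of each of the 11063 tested genes in log2(FPKM + 1) (horizontal axis). Red points are the 956 genes called higher, blue points the 1862 genes called lower and grey points genes that were not called, with IGFBP3 lowest at -4.30 and SERPINB2 highest at 3.19.

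The line was checked against markers of the cell types it could hold. All 7 epithelial and squamous markers were measured, and their summed level was 496 and 451 FPKM in 48 h libraries, against 831 and 727 FPKM in control libraries. KRT5, KRT14, SFN and DSP were lower at 48 h, and EPCAM, CDH1 and TP63 were not called. Markers of other cell types were near 0. The 6 leukocyte markers summed to 0.03 and 0.02 FPKM at 48 h and to 0.04 and 0.07 FPKM in control libraries, with CD3E and CD68 listed at 0 in all 4. The 6 fibroblast markers summed to 0.80 and 0.92 FPKM, against 1.75 and 1.68 FPKM, of which only COL1A1 passed the filter, and the 4 endothelial markers summed to 0.36 and 0.30 FPKM, against 0.84 and 0.52 FPKM. In bulk RNA, fewer cells of a kind and less RNA per cell cannot be told apart.

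IGFBP3 itself (ENSG00000146674, chr7:45912245-45921874 on GRCh38) was the most reduced gene. It stood at 0.261 and 0.258 FPKM in 48 h libraries (21 and 24 reads), against 24.7 and 23.1 FPKM in control libraries (2231 and 1838 reads). The 48 h libraries thus kept 1.09% and 1.08% of the control mean, and the log2 fold change was -4.30 (SE 0.22, adjusted p = 0.000453). Of the 21 other genes of the IGF axis on the list, 9 were measured, with a median of -0.15. Of these, 2 (22.2%, against 16.8% of all tested genes) were lower and 1 (11.1%, against 8.64%) was higher. IGFL1, which encodes a small secreted protein of the IGF-like family, stood at 2.09 and 2.41 FPKM at 48 h against 53.2 and 20.4 FPKM in controls, with a gene model 2.47-fold the length of its reference transcripts. IRS2, which links insulin and IGF receptors to PI3K, was at 3.38 and 3.23 FPKM against 5.34 and 4.79 FPKM. IGFBP4, another IGF-binding protein, was higher, at 68.0 and 69.5 FPKM against 48.5 and 53.9 FPKM. The receptor gene IGF1R was not called, with 5.71 and 6.05 FPKM against 7.31 and 6.36 FPKM (log2 fold change -0.19, SE 0.09, adjusted p = 0.165). IRS2 lost its call without control replicate 1 or either 48 h library, as did IGFBP4 (highest adjusted p = 0.0740 for IRS2 and 0.0899 for IGFBP4).

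Among the largest falls outside the lists, 48 h levels were below those of both control libraries by several fold. The choice of genes required that the groups did not overlap. NGFR, MAB21L4, CXorf49 and CXorf49B passed the filter through their control levels alone and so had to be lower. NGFR, a receptor for nerve growth factor that marks basal epithelial cells, was at 0.333 and 0.322 FPKM at 48 h against 4.31 and 4.76 FPKM in controls (log2 fold change -2.06, adjusted p = 0.00218). LFNG, a glycosyltransferase that modifies Notch receptors, was at 1.26 and 1.81 FPKM against 10.5 and 7.35 FPKM (-1.96, adjusted p = 0.00154). ID2, an inhibitor of basic helix-loop-helix factors and a common BMP target, was at 1.67 and 2.06 FPKM against 10.9 and 7.70 FPKM (-1.83, adjusted p = 0.00273). CRIP2, which encodes a LIM-domain protein, fell by 1.90 and MAB21L4 by 1.87 on the log2 scale. CXorf49 and CXorf49B fell by 1.89 and 1.98, but these are near-identical copies whose reads cannot be assigned with certainty. None of these calls was lost when any library was left out, with the filter read from all 4 libraries each time.

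Among the largest rises outside the lists, both 48 h libraries lay above both control libraries, which the choice of genes required. HMGA2, an architectural chromatin protein of embryonic and tumor cells, was at 83.5 and 93.5 FPKM at 48 h against 25.9 and 22.5 FPKM in controls (log2 fold change 1.83, SE 0.15, adjusted p = 0.00135). CNN2, an actin-binding calponin, was at 74.7 and 76.3 FPKM against 25.5 and 20.1 FPKM (1.69, adjusted p = 0.000794). IL1RL1, the receptor for interleukin 33, was at 7.16 and 8.26 FPKM against 1.54 and 1.43 FPKM (1.81, adjusted p = 0.000671). ANXA10, a calcium-binding annexin, rose by 2.07 on the log2 scale. The unannotated transcript AL137800.1 was at 3.78 and 4.02 FPKM at 48 h, against 0.059 FPKM in the first control library and a listed 0 in the other. It passed the filter through its 48 h levels alone and so had to be higher. ANKRD1, a target of YAP and of stretch signalling, was at 137 and 166 FPKM against 48.3 and 46.0 FPKM (1.65, adjusted p = 0.0264), a call that was lost without any of the 4 libraries (adjusted p from 0.0806 to 0.127).

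Targets of ATF4 were higher at 48 h as a group. Of the 35 genes of the ATF4 stress list, 29 were measured, 17 (58.6%, against 8.64% of all tested genes) were higher and 0 were lower, and 28 had a positive log2 fold change. The median was 0.65, against -0.035 over all tested genes. ATF4 mRNA itself was at 203 and 161 FPKM in 48 h libraries, against 65.4 and 80.0 FPKM in control libraries (log2 fold change 1.31, SE 0.14, adjusted p = 0.00225). CHAC1, which degrades glutathione, was at 17.9 and 10.8 FPKM against 1.36 and 1.99 FPKM (2.5, SE 0.22, adjusted p = 0.00148). Both 48 h libraries lay far above both controls for each gene, and 48 h replicate 1 was the higher of the pair. The ATF4 element CARE (C/EBP-ATF response element) was searched as TGATGNAA on both strands of the 300 bases around the start of each gene, from 250 before to 50 after. It was found for 2 of the 21 measured list genes that have a promoter in the RefSeq table of GRCh38.p14, ATF3 and CHAC1, and in 3.67% of all 27305 promoters. The windows of these 2 genes, both called higher, are shown on the plus strand with the element in capitals, which for CHAC1 reads on the minus strand.
ATF3 (chr1:212565196-212565243): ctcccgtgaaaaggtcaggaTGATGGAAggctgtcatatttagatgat
CHAC1 (chr15:40953242-40953289): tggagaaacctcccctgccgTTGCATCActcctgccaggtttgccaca

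Other members fell into stress signalling and one-carbon and amino acid metabolism. DDIT3 (CHOP), a proapoptotic factor downstream of ATF4, was at 7.60 and 6.01 FPKM at 48 h against 4.38 and 3.56 FPKM in controls (log2 fold change 0.65, adjusted p = 0.0124). ATF3, a stress-induced repressor, was at 1.77 and 1.31 FPKM against 0.489 and 0.440 FPKM (0.79, adjusted p = 0.0108). ATF3 passed the filter through its 48 h levels alone and so had to be higher. TRIB3, a pseudokinase that restrains ATF4 and AKT, was at 40.5 and 23.5 FPKM against 14.2 and 12.7 FPKM (1.14, adjusted p = 0.0174). The feedback genes PPP1R15A (GADD34), which restores translation, EIF4EBP1, a repressor of cap-dependent translation, and SESN2, a leucine sensor, rose by 0.73, 0.78 and 0.48 on the log2 scale. MTHFD2, a mitochondrial folate enzyme, was at 86.6 and 72.4 FPKM against 36.4 and 36.8 FPKM (1.09, adjusted p = 0.00148), and GPT2, an alanine transaminase, was at 11.6 and 8.10 FPKM against 4.89 and 5.34 FPKM (0.81, adjusted p = 0.0108). ASNS, asparagine synthetase and a classical ATF4 target, was named after its values were seen and did not pass the filter, with 0.081 and 0.080 FPKM at 48 h, against 0.031 FPKM in the first control library and a listed 0 in the other. DDIT3, ATF3, TRIB3, SESN2 and GPT2 each lost the call when a library was left out (highest adjusted p from 0.0546 to 0.0759), and the number of list genes called higher was between 8 and 19 over those 4 fits.

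Some of the genes that load amino acids onto tRNA and import them were also higher. Of 20 cytosolic tRNA synthetases, all measured, 10 (50%, against 8.64% of all tested genes) were higher, 0 were lower and 19 had a positive log2 fold change, with a median of 0.44 and 4 to 11 genes higher when 1 library was left out. YARS1, which charges tyrosine, was at 33.8 and 25.1 FPKM at 48 h against 13.7 and 14.8 FPKM in controls (log2 fold change 0.99, SE 0.13, adjusted p = 0.00433). MARS1, which charges methionine, was at 42.9 and 30.5 FPKM against 17.0 and 20.6 FPKM (0.92, adjusted p = 0.0104), and TARS1, which charges threonine, at 278 and 265 FPKM against 180 and 201 FPKM (0.51, adjusted p = 0.0116). The rises of AARS1 and GARS1 (0.94 and 0.83) come from gene models 3.45-fold and 4.18-fold the length of the reference transcripts. Of 24 amino acid transporters, 17 were measured, 6 (35.3%) were higher and 1, the lysosomal SLC36A4, was lower (-0.33), with a median of 0.24 and 3 to 7 genes higher when 1 library was left out. SLC1A5, the main glutamine importer, was at 88.9 and 71.5 FPKM against 41.9 and 43.6 FPKM (0.88, adjusted p = 0.00318). SLC6A9, a glycine transporter, was at 6.04 and 3.39 FPKM against 1.62 and 1.43 FPKM (1.14, adjusted p = 0.0112). SLC38A5 and SLC7A2, which carry small neutral and cationic amino acids, rose by 0.71 and 0.77 on the log2 scale, and the cystine importer SLC7A11 was not called, with 8.31 and 5.37 FPKM against 5.02 and 3.81 FPKM (0.52, adjusted p = 0.113). The call of SLC36A4 was lost without any of the 4 libraries (adjusted p from 0.0575 to 0.102). Leaving out 1 library also ended the calls of MARS1 (without control replicate 1, adjusted p = 0.0545), SLC6A9 (without control replicate 2, adjusted p = 0.0542) and TARS1 (without control replicate 1 or either 48 h library, adjusted p up to 0.0648).

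**Figure D2:**
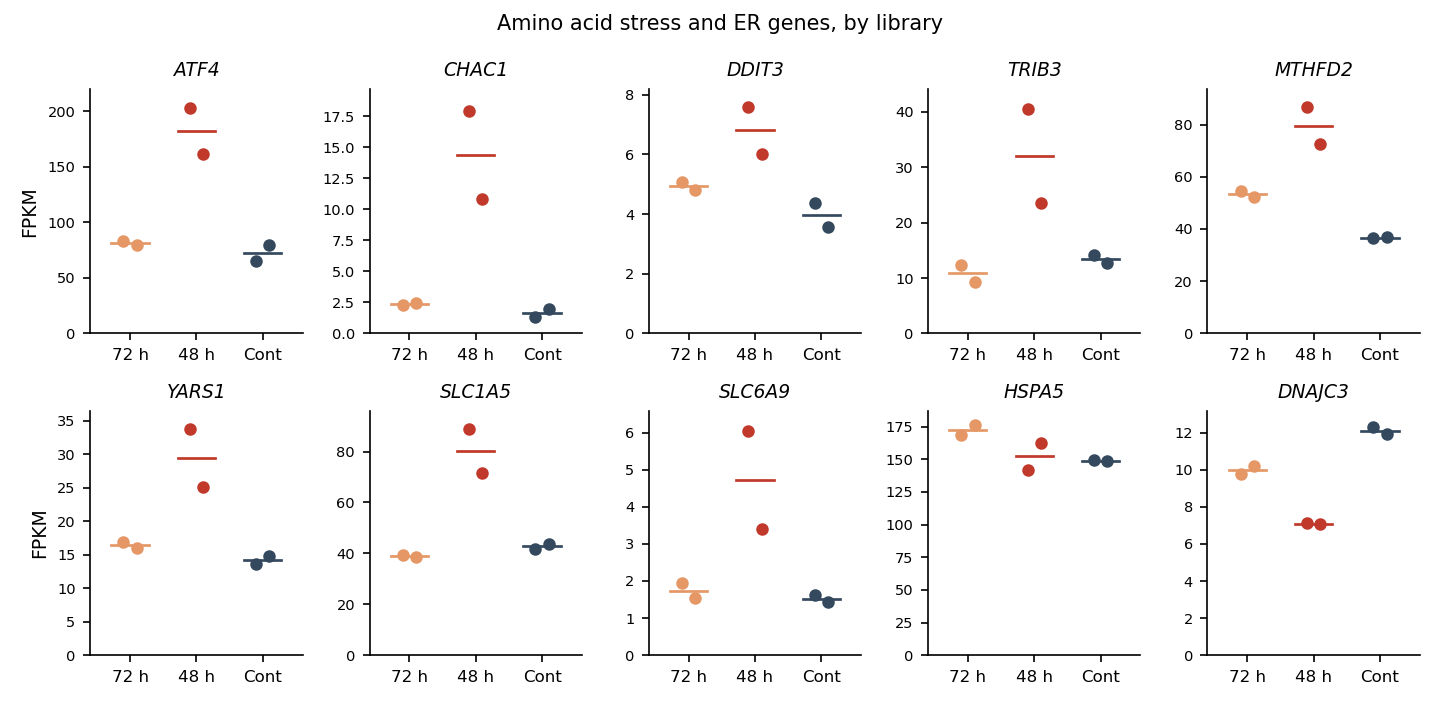
FPKM of 10 genes in each library (points, linear axis from 0) with the group means (lines), for 72 h, 48 h and control (Cont). ATF4, CHAC1, DDIT3, TRIB3, MTHFD2, YARS1, SLC1A5 and SLC6A9 are higher in both 48 h libraries than in both controls, HSPA5 overlaps with the controls and DNAJC3 is lower.

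The list of endoplasmic reticulum (ER) chaperones and unfolded protein response genes did not rise as a group with the ATF4 genes. It also holds genes other than chaperones, among them SEC24D, ATF6 and XBP1. Of 33 genes of this list, 31 were measured, 7 (22.6%, against 16.8% of all tested genes) were lower and 1 was higher, with a median of -0.18. When 1 library was left out, 4 were lower and 0 were higher. HSPA5 (BiP), the main chaperone induced by unfolded proteins, was at 142 and 162 FPKM at 48 h against 149 and 149 FPKM in controls (log2 fold change 0.03, SE 0.09, adjusted p = 0.84), and the groups overlapped. DNAJC3, an HSPA5 cofactor, was at 7.12 and 7.08 FPKM against 12.3 and 11.9 FPKM (-0.69, adjusted p = 0.00174), and SEC24D, a coat protein of export vesicles, at 1.84 and 1.78 FPKM against 4.86 and 4.43 FPKM (-1.0, adjusted p = 0.00135). HSP90B1, an abundant chaperone, was at 172 and 191 FPKM against 220 and 238 FPKM and MANF at 43.0 and 49.3 FPKM against 64.6 and 65.7 FPKM. XBP1, the transcription factor activated by IRE1, was the 1 gene called higher (20.2 and 17.8 FPKM against 15.8 and 15.1 FPKM, adjusted p = 0.0446). The calls of HSP90B1 and XBP1 were lost without any of the 4 libraries (adjusted p up to 0.167 and 0.188), and that of MANF without 48 h replicate 1 (adjusted p = 0.0521).

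In the other stress lists, the counts stand beside 16.8% lower and 8.64% higher among all tested genes. The share called lower was near that of all genes for heat shock chaperones, below it for NRF2 targets and above it for p53 targets. Some lower genes of the NRF2 and p53 lists passed the filter through their control levels alone and so had to be lower. Of 17 measured heat shock chaperones, 3 (17.6%) were lower and 1 (5.88%) was higher, with a median of -0.00. HSPB1 (HSP27) was at 145 and 152 FPKM at 48 h against 247 and 213 FPKM in controls (log2 fold change -0.63, adjusted p = 0.00767), whereas HSPA1A, the inducible HSP70, was not called (98.4 and 112 FPKM against 118 and 116 FPKM, adjusted p = 0.307). FKBP4, an HSP90 cochaperone, was the gene called higher, at 64.7 and 71.2 FPKM against 48.1 and 49.8 FPKM, until 48 h replicate 2 was left out (adjusted p = 0.0521). Of 23 measured NRF2 targets, which defend against oxidants, 2 (8.7%) were lower and 1, the thioredoxin reductase TXNRD1, was higher (85.7 and 75.8 FPKM against 61.6 and 55.3 FPKM), a call lost without any of the 4 libraries (adjusted p from 0.0639 to 0.148). The median of this list was -0.07. HMOX1 was not called, with 1.85 and 1.35 FPKM against 1.56 and 1.27 FPKM (adjusted p = 0.68), and NQO1 was at 78.4 and 68.7 FPKM against 114 and 99.7 FPKM (adjusted p = 0.051). Of 17 measured p53 targets, 5 (29.4%) were lower and 0 were higher, with a median of -0.21 and 0 to 4 genes lower when 1 library was left out. CDKN1A (p21), which arrests the cell cycle, was at 14.1 and 10.8 FPKM against 25.5 and 12.8 FPKM, with the higher 48 h library above the lower control (adjusted p = 0.225), and MDM2, which degrades p53, was at 7.73 and 7.57 FPKM against 10.9 and 8.19 FPKM (adjusted p = 0.159). Without control replicate 2, CDKN1A and MDM2 were called lower (adjusted p = 0.0226 and 0.0381).

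Secreted proteases and their inhibitors split, with the largest changes in single genes. Of 23 matrix metalloproteinases, 7 were measured, with a median of 0.01. Of these, 3 (42.9%, against 8.64% of all tested genes) were higher and 2 (28.6%, against 16.8%) were lower. MMP1, the interstitial collagenase, was at 421 and 483 FPKM in 48 h libraries, against 69.1 and 85.7 FPKM in control libraries (log2 fold change 2.54, SE 0.23, adjusted p = 0.00156). MMP3, stromelysin, was at 2.85 and 4.42 FPKM against 1.77 and 1.08 FPKM (0.93, adjusted p = 0.0165). The membrane-anchored MMP14, which activates MMP2, was lower, at 55.4 and 54.0 FPKM against 81.9 and 67.7 FPKM (-0.44, adjusted p = 0.0215), while the macrophage elastase MMP12 was at 2.12 and 1.91 FPKM against 1.39 and 1.01 FPKM (0.46, adjusted p = 0.0434). MMP13, another collagenase, was at 0.578 and 0.672 FPKM against 1.12 and 1.67 FPKM (-0.55, adjusted p = 0.0242). MMP13 passed the filter through its control levels alone and so had to be lower. MMP2 was not called, with 11.0 and 12.1 FPKM against 11.3 and 11.6 FPKM. Among the 4 measured inhibitors of these enzymes, TIMP3 was higher, at 62.5 and 73.9 FPKM against 33.0 and 35.6 FPKM (0.97, adjusted p = 0.00767), and TIMP1 overlapped, at 77.4 and 84.7 FPKM against 81.4 and 83.6 FPKM. The calls of MMP3, MMP13, MMP14 and TIMP3 were each lost without at least 1 library, including 48 h replicate 2 in all 4 cases (highest adjusted p from 0.0528 to 0.106), that of MMP12 without any of the 4 (adjusted p from 0.0554 to 0.170), and that of MMP1 was kept.

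Serpins and the plasminogen system were mostly lower apart from SERPINB2. Of 22 genes, 14 were measured, with a median of -0.21. Of these, 5 (35.7%, against 16.8% of all tested genes) were lower and 1 (7.14%, against 8.64%) was higher. SERPINB2, an inhibitor of plasminogen activators, was at 172 and 191 FPKM at 48 h against 28.4 and 12.6 FPKM in controls (log2 fold change 3.19, SE 0.45, adjusted p = 0.00478), with a gene model 1.78-fold the length of its reference transcripts and overlapping SERPINB10. SERPINA1, the inhibitor of neutrophil elastase, was at 9.56 and 9.59 FPKM against 21.1 and 20.9 FPKM (-1.06, SE 0.07, adjusted p = 0.000621). SERPINB5 (maspin), an epithelial serpin, was at 13.7 and 14.3 FPKM against 29 and 25 FPKM (-0.90, adjusted p = 0.00184), and the epithelial SERPINB7 was at 1.02 and 1.56 FPKM against 3.77 and 3.38 FPKM (-1.01, adjusted p = 0.00324). The activator PLAU (urokinase) was at 98.2 and 121 FPKM against 136 and 112 FPKM, and the groups overlapped (adjusted p = 0.595). The urokinase receptor PLAUR was not called, with 2.97 and 3.89 FPKM against 6.13 and 4.93 FPKM (adjusted p = 0.079).

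Several serine proteases of the cell surface and kallikreins were lower. The list of these genes also holds protease inhibitors, among them SPINT1 and SPINT2. Of its 22 genes, 11 were measured. Of these, 6 (54.5%, against 16.8% of all tested genes) were lower and 0 were higher, with a median of -0.56. The median lay between -0.68 and -0.57 when 1 library was left out. Without the filter, the median over 19 genes was -0.25 and 4 were lower. ST14 (matriptase), a membrane protease of epithelia, was at 5.22 and 5.44 FPKM at 48 h against 13.3 and 13.0 FPKM in controls (log2 fold change -1.16, SE 0.07, adjusted p = 0.000597). Its inhibitor SPINT2 was at 25.2 and 24.6 FPKM against 37.2 and 38.6 FPKM (-0.58, adjusted p = 0.00261). KLK5 was at 22.4 and 25.5 FPKM against 60.3 and 51.6 FPKM (-1.19, adjusted p = 0.0101), and KLK6 was at 67.9 and 77.8 FPKM against 145 and 142 FPKM (-0.97, adjusted p = 0.00921). Both are kallikrein proteases secreted by squamous epithelium. TMPRSS11E, an epithelial transmembrane protease, fell by 0.77 on the log2 scale (adjusted p = 0.00661). Of 11 measured ADAM and ADAMTS genes, 2 (18.2%, against 8.64% of all tested genes) were higher and 1 (9.09%, against 16.8%) was lower. ADAMTS12 and ADAMTS15, which cleave matrix proteins, rose by 0.67 and 0.78. The lower gene was ADAM23, a nonproteolytic adhesion protein, at 0.720 and 0.607 FPKM against 1.13 and 1.24 FPKM (-0.39, adjusted p = 0.0473). ADAM23 passed the filter through its control levels alone and so had to be lower. KLK5 lost its call without control replicate 1 or 48 h replicate 1 and KLK6 without 48 h replicate 1 (highest adjusted p = 0.0576 and 0.0538). The call of ADAM23 was lost without any of the 4 libraries (adjusted p from 0.1 to 0.182).

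**Figure D3:**
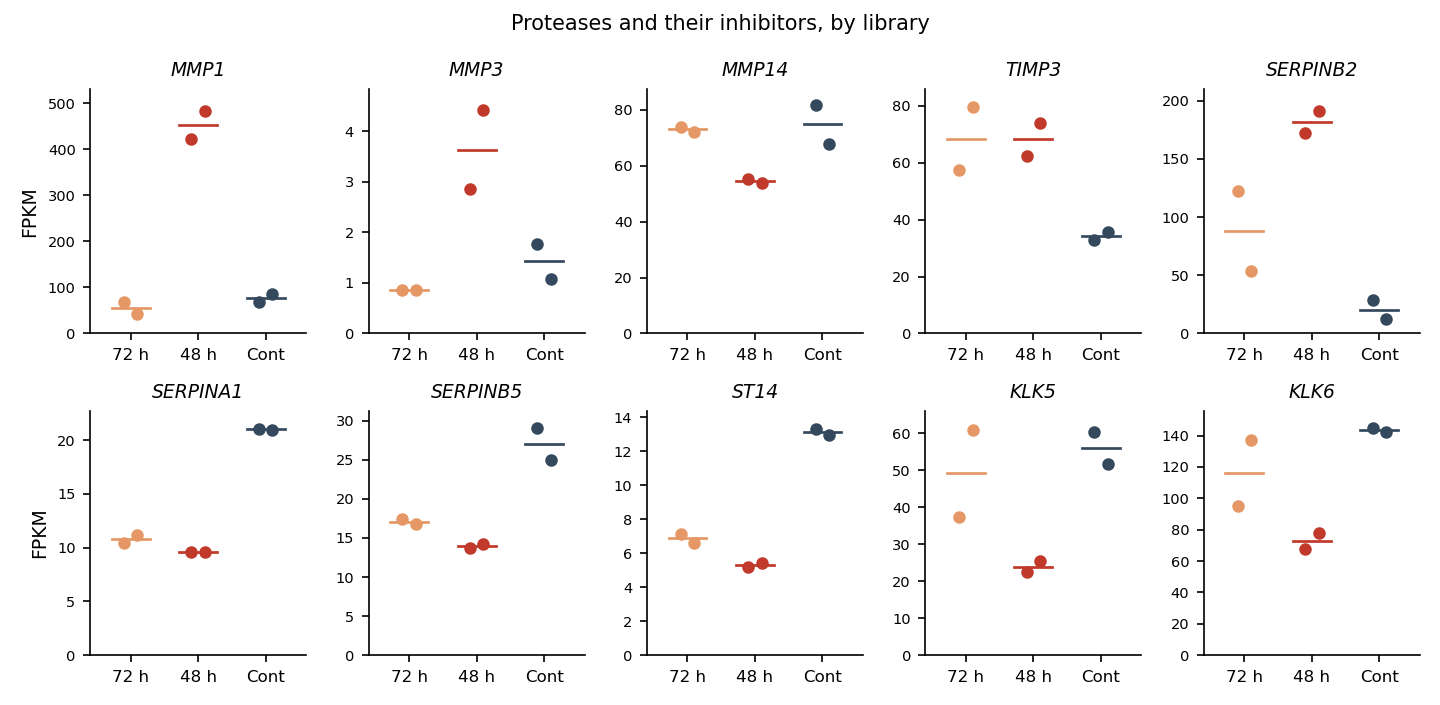
FPKM of 10 protease and inhibitor genes in each library (points, linear axis from 0) with the group means (lines), for 72 h, 48 h and control (Cont). MMP1, MMP3, TIMP3 and SERPINB2 are higher and MMP14, SERPINA1, SERPINB5, ST14, KLK5 and KLK6 lower in both 48 h libraries than in both controls.

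Lipid synthesis genes were mostly not called at 48 h, with wide gaps between libraries of a group. Of 25 cholesterol synthesis genes, 21 were measured, 2 (9.52%, against 8.64% of all tested genes) were higher and 0 were lower, and 16 had a positive log2 fold change. The median was 0.31, and control replicate 2 was the lower control library. Over the list, the median difference from the control mean was 0.364 and 0.206 in 48 h libraries, against 0.310 and -0.310 in control libraries. The 48 h libraries therefore overlapped with control replicate 1. HMGCS1, an early enzyme of the pathway, was at 76.6 and 61.8 FPKM against 52.7 and 22.8 FPKM (log2 fold change 0.96, SE 0.44, adjusted p = 0.149), and INSIG1, a feedback sensor of sterols, at 40.2 and 22.1 FPKM against 20.2 and 8.27 FPKM (1.14, SE 0.44, adjusted p = 0.1). The genes called were ACAT2 (21.9 and 20.7 FPKM against 14.3 and 9.59 FPKM, adjusted p = 0.0423) and LSS (9.62 and 7.53 FPKM against 6.20 and 3.69 FPKM, adjusted p = 0.0424), and both calls were lost without control replicate 2 or either 48 h library (adjusted p up to 0.164 and 0.18). Without control replicate 1 the list median was 0.56 with 7 genes higher, and without control replicate 2 it was -0.00 with 0 higher. Of the fits that left out 1 library, that without control replicate 1 called INSIG1 higher (adjusted p = 0.0445), as did voom. A sterol regulatory element, searched as TCACNCCAC, was found in 1 of 15 list promoters and in 1.15% of all promoters.

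Fatty acid and glycerolipid genes went both ways. Of 26, 23 were measured, with a median of 0.05. Of these, 5 (21.7%, against 8.64% of all tested genes) were higher and 3 (13.0%, against 16.8%) were lower. SCD5, a stearoyl-CoA desaturase, was at 2.5 and 2.67 FPKM at 48 h against 11.2 and 8.88 FPKM in controls (log2 fold change -1.61, SE 0.12, adjusted p = 0.000892). ACSL4, which activates arachidonic acid, was at 8.29 and 7.50 FPKM against 14.8 and 13.8 FPKM (-0.78, adjusted p = 0.00184). LPIN1, a phosphatidate phosphatase, was at 9.68 and 7.01 FPKM against 4.63 and 3.26 FPKM (0.92, adjusted p = 0.0123), and ACLY and ACACA, which supply acetyl- and malonyl-CoA, rose by 0.54 and 0.61 on the log2 scale (adjusted p = 0.0295 and 0.0314). FASN, fatty acid synthase, was not called, with 201 and 102 FPKM against 98.7 and 70.8 FPKM (adjusted p = 0.103), nor was SCD, with 281 and 150 FPKM against 198 and 82.5 FPKM (adjusted p = 0.277), or SREBF1, with 20.1 and 9.24 FPKM against 12.2 and 8.03 FPKM (adjusted p = 0.37). The calls of LPIN1, ACLY and ACACA were lost when control replicate 2 or 48 h replicate 1 was left out (highest adjusted p 0.0557, 0.137 and 0.131), and those of SCD5 and ACSL4 were kept when any library was left out. Of the fits that left out 1 library, that without 48 h replicate 2 called FASN higher (adjusted p = 0.0248), as did voom.

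The basal and stress keratins that were measured were lower at 48 h, and simple keratins went both ways. The counts in these small lists stand beside 16.8% lower and 8.64% higher among all tested genes. All 3 basal keratins were called lower, with a median of -1.15. However, KRT14 and KRT15 passed the filter through their control levels alone and so had to be lower. KRT5 was at 126 and 117 FPKM in 48 h libraries, against 298 and 247 FPKM in control libraries (log2 fold change -1.15, SE 0.11, adjusted p = 0.00164). KRT14 was at 0.554 and 0.610 FPKM against 2.76 and 2.29 FPKM (-1.15, adjusted p = 0.00264), and KRT15 at 0.852 and 0.681 FPKM against 2.24 and 1.68 FPKM (-0.74, adjusted p = 0.0153). Of 6 stress keratins, the 2 measured were lower. KRT17 was at 37.1 and 37.7 FPKM against 164 and 135 FPKM (-1.97, SE 0.10, adjusted p = 0.000453), and KRT6A at 10.9 and 12.8 FPKM against 36.9 and 25.1 FPKM (-1.30, adjusted p = 0.015). Of 4 measured simple keratins, KRT18 (764 and 680 FPKM against 514 and 452 FPKM, 0.58, adjusted p = 0.0157) and KRT7 (617 and 657 FPKM against 485 and 535 FPKM, 0.32, adjusted p = 0.0413) were higher. KRT19 was lower, at 59.6 and 48.7 FPKM against 96.8 and 79.4 FPKM (-0.69, adjusted p = 0.0146), and KRT8, the partner of KRT18, was not called (330 and 343 FPKM against 322 and 302 FPKM, adjusted p = 0.457). Of 4 other measured keratins, 2 were lower and 0 were higher, with a median of -0.50. Without the filter, 0 of 12 other keratins were lower, with a median of -0.02. The calls of KRT15, KRT6A, KRT18, KRT7 and KRT19 were each lost without at least 48 h replicate 2 (highest adjusted p from 0.0762 to 0.195), and those of KRT5, KRT14 and KRT17 were kept when any library was left out.

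Most genes of squamous differentiation did not pass the filter, and those measured were more often lower than higher at 48 h. Of 44 genes, 14 passed the filter, and 8 genes were listed at 0 in all 4 libraries. Of the 14, 8 (57.1%, against 16.8% of all tested genes) were lower and 1 (7.14%, against 8.64%) was higher, with a median of -0.68. Because a gene that passed through its control level alone had to be lower, these counts describe the measured genes only. Without the filter the median was -0.03. At an FPKM of at least 5, 2 of 6 genes were lower and 1 was higher, with a median of -0.17. S100A9, a calcium-binding protein of inflamed epithelium, was at 20.2 and 9.86 FPKM at 48 h against 60.8 and 51.6 FPKM in controls (log2 fold change -1.91, SE 0.28, adjusted p = 0.00554). CALML3, a calmodulin-like protein of epithelia, was at 2.85 and 2.44 FPKM against 12 and 12.4 FPKM (-1.86, adjusted p = 0.00273). GRHL3, a transcription factor of the epidermal barrier, was at 0.455 and 0.406 FPKM against 5.34 and 3.0 FPKM (-1.82, adjusted p = 0.0052). IVL (involucrin), a protein of the cornified envelope, was at 0.396 and 0.890 FPKM against 2.73 and 2.88 FPKM (-1.23, adjusted p = 0.00313), and the desmosomal cadherin DSC2 at 0.949 and 0.778 FPKM against 2.1 and 2.03 FPKM (-0.72, adjusted p = 0.00544). GRHL3, IVL and DSC2 passed the filter through their control levels alone and so had to be lower. LYPD3, a surface protein of suprabasal cells, fell by 0.81 on the log2 scale. EVPL (envoplakin), another envelope protein, was the gene called higher (8.92 and 9.39 FPKM against 7.49 and 7.53 FPKM, adjusted p = 0.0345), a call lost without any of the 4 libraries (adjusted p from 0.0813 to 0.156).

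**Figure D4:**
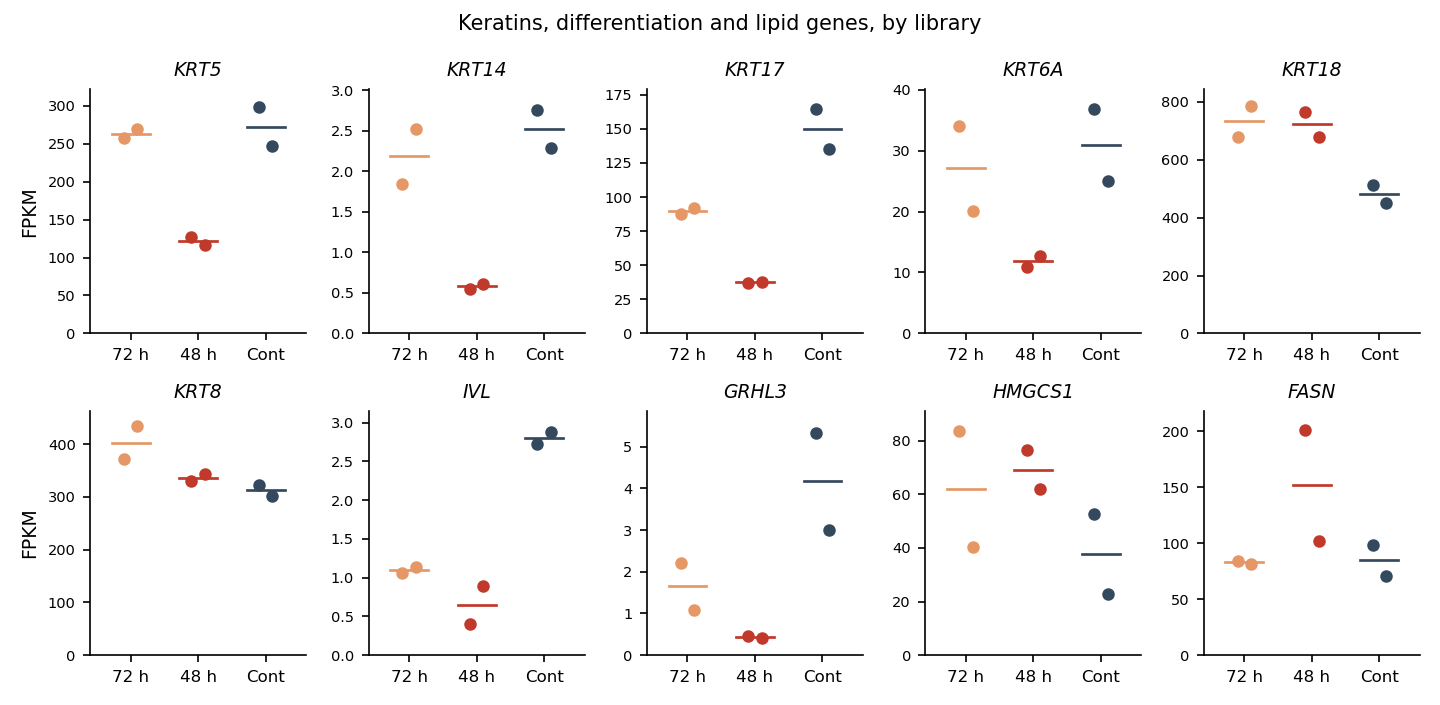
FPKM of 10 keratin, differentiation and lipid synthesis genes in each library (points, linear axis from 0) with the group means (lines), for 72 h, 48 h and control (Cont). KRT5, KRT14, KRT17, KRT6A, IVL and GRHL3 are lower and KRT18 higher in both 48 h libraries than in both controls, and HMGCS1 and FASN spread widely within the groups.

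Some mitotic genes were lower at 48 h, most by small amounts. Of 79 genes of G2 and mitosis, 77 were measured, 18 (23.4%, against 16.8% of all tested genes) were lower, 1 was higher and 58 were not called, with a median of -0.16 and 12 positive log2 fold changes. DEPDC1, a mitotic regulator of tumor cells, was at 10 and 9.44 FPKM at 48 h against 23.8 and 25.6 FPKM in controls (log2 fold change -1.26, SE 0.07, adjusted p = 0.000584). The condensin subunit NCAPG was at 22.2 and 23.3 FPKM against 35.0 and 36.1 FPKM (-0.62, adjusted p = 0.00255). AURKA, a spindle kinase, and KIF11, the motor that separates spindle poles, stood at 44.6 and 48.2 FPKM against 72.5 and 76.5 FPKM and at 30.7 and 32.6 FPKM against 43.2 and 45.0 FPKM. MKI67, the proliferation antigen Ki-67, was at 32.3 and 28.8 FPKM against 43.1 and 42.4 FPKM (-0.47, adjusted p = 0.0127). The central regulators CCNB1 (115 and 119 FPKM against 130 and 129 FPKM, adjusted p = 0.163) and PLK1 (31.2 and 35.0 FPKM against 33.5 and 32.7 FPKM, adjusted p = 0.987) were not called, and MYBL2, a transcription factor of this program, was the 1 gene called higher (0.41, adjusted p = 0.0145). Over the fits without 1 library, the list median lay between -0.19 and -0.13, against -0.046 to -0.032 over all tested genes. Fewer genes were called lower in each of these fits, in the list and among all tested genes. The share of the list called lower exceeded that of all tested genes in some of these fits only. The calls of MKI67, CCNB2, CDCA8 and MYBL2 were among those lost.

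The CHR, searched as TTTGAA on both strands of the same promoters, was found for 43 of the 65 measured list genes with a promoter (66.2%) and in 15.43% of all 27305 promoters. It was present in 12 of 15 promoters of genes called lower and in 31 of 49 promoters of genes not called. These matches are descriptions of the sequence and not of binding. Matches of TTTGAA shared bases with the AP-1 motif TGANTCA in 64 promoters, and with the other motifs in 0. The windows of 5 genes called lower are shown 5′ to 3′ on the strand of the gene because the element lies close to the start in each, between 23 and 35 bases before it. The motif is in capitals and reads TTCAAA where it lies on the opposite strand.
DEPDC1 (chr1:68497084-68497129, minus strand): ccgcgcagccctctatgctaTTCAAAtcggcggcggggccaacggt
NCAPG (chr4:17810924-17810969, plus strand): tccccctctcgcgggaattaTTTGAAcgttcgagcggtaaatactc
KIF11 (chr10:92593082-92593127, plus strand): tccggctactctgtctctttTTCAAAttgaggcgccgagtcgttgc
CDCA8 (chr1:37692473-37692518, plus strand): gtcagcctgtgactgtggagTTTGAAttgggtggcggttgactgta
CCNB2 (chr15:59105097-59105142, plus strand): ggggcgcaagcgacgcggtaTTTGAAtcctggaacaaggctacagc
CDCA8, a subunit of the chromosomal passenger complex, was at 43.2 and 47.5 FPKM at 48 h against 58.3 and 61.4 FPKM in controls, and cyclin B2 (CCNB2) at 36.1 and 29.9 FPKM against 44.3 and 46.8 FPKM.

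Of 51 genes of G1/S and replication, 49 were measured, 16 (32.7%, against 16.8% of all tested genes) were lower and 2 (4.08%, against 8.64%) were higher, with a median of -0.13. When 1 library was left out, 5 to 9 were lower. The E-type cyclins moved in opposite directions. CCNE2 was at 3.27 and 3.49 FPKM at 48 h against 7.12 and 7.36 FPKM in controls (log2 fold change -0.91, SE 0.07, adjusted p = 0.00128), and CCNE1 was at 11.7 and 11.9 FPKM against 9.36 and 9.13 FPKM (0.32, SE 0.07, adjusted p = 0.0159). E2F1, the transcription factor that drives S-phase genes, was at 8.73 and 8.54 FPKM against 12.6 and 13.3 FPKM (-0.54, adjusted p = 0.00339), and POLD3, a subunit of DNA polymerase delta, at 7.58 and 7.01 FPKM against 12.9 and 14.4 FPKM (-0.82, adjusted p = 0.00255). PCNA, the polymerase clamp, was at 97.7 and 99.9 FPKM against 125 and 140 FPKM (-0.42, adjusted p = 0.0263), and the helicase subunit MCM2 was not called, at 61.7 and 59.6 FPKM against 62.3 and 71.1 FPKM. The call of CCNE1 was lost without any of the 4 libraries (adjusted p from 0.0539 to 0.083) and that of PCNA without control replicate 2 or either 48 h library (adjusted p up to 0.109).

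**Figure D5:**
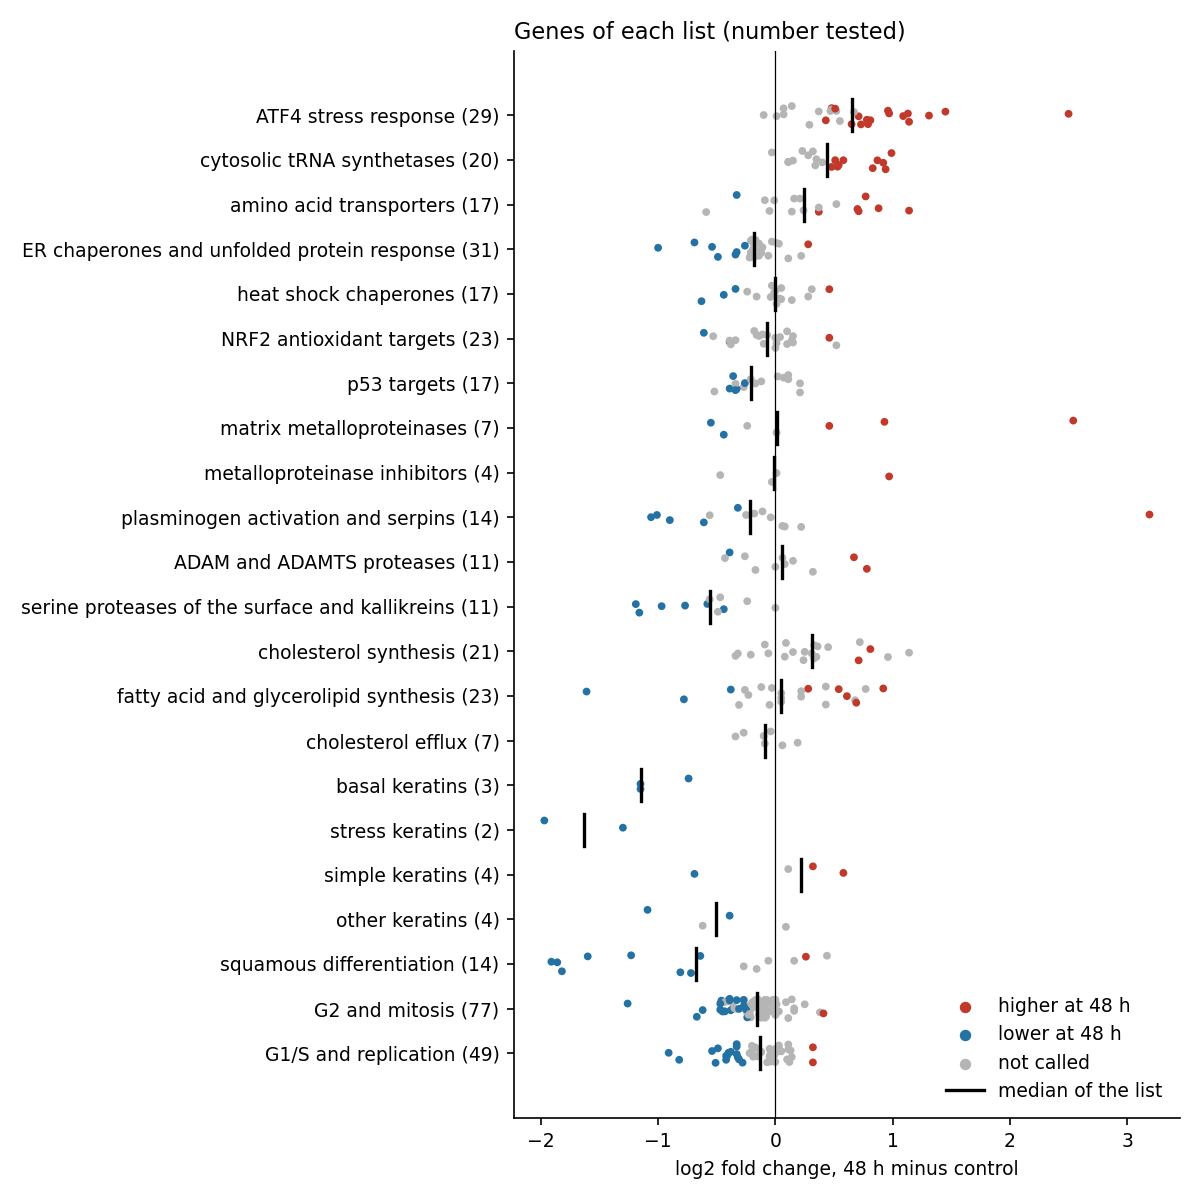
Log2 fold change (48 h minus control) of each measured gene (points) of 22 lists, with the median of each list as a black bar and the number of measured genes in brackets. The ATF4 stress list has its median at 0.65, that of basal keratins at -1.15 and that of G2 and mitosis at -0.16.

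The 72 h libraries set these differences beside a later time of the knockdown. The comparison of 72 h with 48 h uses the same 48 h libraries, and the medium exchange and the time cannot be told apart. At an adjusted p under 0.05, 217 genes (1.96%) had lower and 245 (2.21%) had higher levels at 72 h than at 48 h. Without 48 h replicate 1, limma called 0 lower and 0 higher, with 1044 and 1110 genes at an unadjusted p under 0.05, and voom on the recovered reads of all libraries called 551 and 579. Dropping 48 h replicate 2 left 20 lower and 16 higher calls, dropping 72 h replicate 1 left 64 and 89, and dropping 72 h replicate 2 left 7 and 8. The fit lacking control replicate 1 made 105 and 144 calls, and that lacking the other control made 103 and 144. At 72 h, 10 of the 29 ATF4 stress genes were below their 48 h level and 0 above it, with a median difference of -0.56 from 48 h and of 0.09 from control. ATF4 was at 83.1 and 79.7 FPKM at 72 h against 203 and 161 FPKM at 48 h (log2 difference -1.14, adjusted p = 0.0165), CHAC1 at 2.27 and 2.48 FPKM at 72 h against 17.9 and 10.8 FPKM at 48 h (-2.15, adjusted p = 0.0135). MMP1 was at 68.9 and 41.4 FPKM at 72 h against 421 and 483 FPKM at 48 h (-3.05, adjusted p = 0.00674). All 3 basal keratins were higher at 72 h, with KRT5 at 257 and 269 FPKM against 126 and 117 FPKM at 48 h (1.11, adjusted p = 0.0129), and KRT17 was at 87.8 and 92.0 FPKM against 37.1 and 37.7 FPKM (1.24, adjusted p = 0.00922).

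Among the other lists, 5 of 20 tRNA synthetases, 4 of 17 amino acid transporters and 3 of 13 ERK feedback genes were lower at 72 h than at 48 h. Higher at 72 h were 5 of 20 interferon response genes, beside 1.96% lower and 2.21% higher among all tested genes. At 72 h, 3 of the 77 mitotic genes were above their 48 h level and 0 below it, with a median difference of 0.14 from 48 h and of -0.01 from control. No squamous differentiation gene was called either way, with a median difference of 0.33 from 48 h and of -0.44 from control, and IVL was at 1.06 and 1.14 FPKM at 72 h against 0.396 and 0.890 FPKM at 48 h (0.37, adjusted p = 0.177). SERPINB2 was at 122 and 53.9 FPKM at 72 h against 172 and 191 FPKM at 48 h and was not called (-1.15, adjusted p = 0.17). TIMP3 was at 57.5 and 79.6 FPKM at 72 h against 62.5 and 73.9 FPKM at 48 h, and the groups overlapped (-0.01, adjusted p = 0.983). IGFBP3 was at 1.52 and 3.25 FPKM at 72 h against 0.261 and 0.258 FPKM at 48 h (1.38, adjusted p = 0.0322), and IGFBP6, another IGF-binding protein, at 10.9 and 18.0 FPKM against 6.68 and 5.36 FPKM (1.10, adjusted p = 0.0438). Comparisons of either time with control share the same control libraries.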

How the data were processed

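RNA from 6 libraries was sequenced, and the authors deposited 1 table of FPKM values with 66351 gene models. The submitters' processing notes name GRCh38, DESeq2, HTSeq 0.6.1 and HISAT2 2.0.1, of which the study's methods give HISAT2 as the aligner. FPKM times length gave whole reads within 0.1 read for 100.0% of the low values checked, which gave 17431000 to 21580000 assigned reads per library. Models without a name held 2.68% to 2.94% of reads and were left out. Gene models over 1.5 times as long as their reference transcripts made up 7.67% of tested genes.

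Named genes that reached 1 FPKM in 2 or more of the 4 libraries of 48 h and control were tested on log2(FPKM + 1) with limma 3.58.1 in R 4.3.3 (limma-trend, 1 mean per group, all 6 libraries, Benjamini-Hochberg over 11063 genes, adjusted p under 0.05). The test was checked on simulated data. Tables and figures were made in Python 3.11.15 with pandas 2.3.3, numpy 2.4.6 and matplotlib 3.10.9. Alternatives were other pseudocounts, filters, scalings, fits and thresholds, voom on the recovered reads, and leaving out each library. The text names IGFBP3, genes among the 12 largest falls and 12 largest rises, and up to 8 members per list by smallest p. Fixed anchor genes and genes with a motif window shown are also named. The falls and rises were taken from called genes whose 48 h libraries both lay on the same side of both controls. ASNS was added after its values were seen. Members and lists were chosen with earlier results of these data known. Promoters were RefSeq sequences of GRCh38.p14. Replicate numbers were not used as pairs in the main fit. The correlation of their deviations was -0.004 for 48 h and control, 0.159 for 72 h and control and -0.131 for 72 h and 48 h. With 1 difference per group, these values cannot settle whether libraries were paired. Some results are not reported here.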

Additional observations from a re-analysis of the deposited data

Results flagged for a closer look

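For the genes below, the level at 72 h differed from that at 48 h in a limma test of the difference itself (adjusted p under 0.05). Values are log2 differences, 72 h minus 48 h, and no gene was called without 48 h replicate 1. Among stress genes, the difference was -1.14 for ATF4, -2.15 for CHAC1, -1.44 for TRIB3, -0.56 for MTHFD2, -0.61 for PPP1R15A, -0.48 for EIF4EBP1, -0.77 for SESN2 and -0.72 for GPT2. It was -0.78 for YARS1, -0.86 for MARS1, -0.49 for TARS1, -0.62 for AARS1, -0.70 for GARS1, -1.02 for SLC1A5 and -1.03 for SLC6A9. Chaperone genes gave 0.44 for DNAJC3, 0.51 for HSPB1 and -0.37 for FKBP4.

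Protease genes gave -3.05 for MMP1, -1.30 for MMP3 and 0.94 for ADAMTS15, and the desaturase SCD5 gave 0.81. Keratins gave 1.11 for KRT5, 1.00 for KRT14, 0.94 for KRT15, 1.24 for KRT17 and 0.92 for KRT19. Mitotic genes gave 0.37 for DEPDC1, 0.35 for NCAPG and 0.34 for KIF11. IGFBP3 differed by 1.38 and IGFBP6 by 1.10. Among the other genes the difference was 0.92 for LFNG, 1.54 for CRIP2, 0.72 for MAB21L4, -0.56 for AL137800.1, -0.87 for HMGA2, -1.08 for IL1RL1, 0.50 for IFITM3, 1.08 for IFIT1, -1.17 for IL1A, -0.46 for PHLDA1, -1.44 for ETV4, 0.70 for ADM and -1.09 for VEGFA.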

How the results depend on the processing

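Numbers of called genes moved most. At 48 h, 1104 genes were lower and 474 higher without a filter, 1222 lower at an FPKM of at least 5, and 730 lower and 251 higher at an adjusted p under 0.01. Leaving out 1 library gave 755 to 1094 lower and 306 to 516 higher genes, with fewer samples in each fit. Between 72 h and 48 h, 0 genes were lower and 0 higher with limma without a filter (2051 and 1833 at an unadjusted p under 0.05, and 551 and 579 with voom), 108 and 145 with only the compared libraries, 37 and 59 with unnamed models included, and 0 to 105 lower and 0 to 144 higher without 1 library. The replicate block gave 1697 lower and 859 higher genes at 48 h and 90 and 123 between 72 h and 48 h. With the replicate numbers of the 48 h libraries crossed, an alternative chosen after seeing the data, the block gave 210 and 227.

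Some list medians near 0 turned direction. They were -0.09 for fatty acid synthesis without 48 h replicate 1, -0.01 for ERK feedback without control replicate 2, 0.06 for cytokines and 0.03 for metalloproteinase inhibitors with quantile normalization, -0.05 for matrix metalloproteinases and 0.03 for cholesterol efflux without 48 h replicate 2, 0.03 for NRF2 targets without control replicate 1 and -0.08 for ADAM proteases at an FPKM of at least 5. The lists that follow kept their sign. In the main fit, some members of the basal keratin and squamous differentiation lists had to be lower because of the filter. The squamous differentiation median without a filter, given below, stands beside -0.008 over all genes of that fit. The median was 0.40 for the ATF4 stress list, -0.12 for ER chaperones, -0.43 for basal keratins, -0.08 for G1/S, -0.39 for surface serine proteases and -0.27 for squamous differentiation with a pseudocount of 5, and -0.65 for surface serine proteases and -0.99 for squamous differentiation with 0.1. It was -0.11 for serpins, -0.25 for surface serine proteases and -0.03 for squamous differentiation without a filter, and 0.37 for amino acid transporters, -0.67 and -0.17 for the same last lists at an FPKM of at least 5. Those lists gave -0.61 and -0.93 with TPM, -0.49 and -0.60 with quantile normalization and -0.67 and -1.02 with voom, which gave -1.36 for basal keratins. Without 1 library the medians were 0.50 to 0.86 for ATF4 stress, -0.22 to -0.10 for ER chaperones, -0.32 to -0.19 for serpins, -0.68 to -0.57 for surface serine proteases, -1.25 to -1.01 for basal keratins, -0.73 to -0.63 for squamous differentiation and -0.16 to -0.07 for G1/S.

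Of 116 called genes named in the text, 61 kept the call when each library was left out and 70 under the other settings. Genes that were not called could turn direction. Quantile normalization gave 0.04 for PLK1 and 0.02 for ISG15. Without 1 library the log2 fold change was -0.07 to 0.12 for HSPA5, -0.04 to 0.24 for HMOX1, -0.05 to 0.07 for MMP2, -0.09 to 0.04 for TIMP1, -0.09 to 0.95 for SREBF1, -0.08 to 0.08 for PLK1, -0.11 to 0.13 for IFIT1 and -0.11 to -0.00 for ISG15. The cause was not tested.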

Other observations

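Other groups of genes also held called members at 48 h, when 16.8% of all tested genes were lower and 8.64% higher. Of 20 measured interferon response genes, 4 (20%) were lower and 0 were higher, with a median log2 fold change of -0.20. IFITM3, a membrane protein that blocks virus entry, was at 134 and 120 FPKM at 48 h against 196 and 181 FPKM in controls (-0.57, adjusted p = 0.00801 with limma), while IFIT1 (3.23 and 2.59 FPKM against 3.03 and 2.70 FPKM) and ISG15 (3.01 and 2.72 FPKM against 2.86 and 3.18 FPKM) overlapped. Of 17 measured cytokines and NF-kB feedback genes, 3 (17.6%) were lower and 2 (11.8%) were higher, with a median of -0.03. The alarmin IL1A was at 78.8 and 65.8 FPKM against 29.6 and 23.6 FPKM (1.41, adjusted p = 0.00209), with a gene model 1.57-fold the length of its reference transcripts. CCL20, a chemokine for lymphocytes and dendritic cells, was at 2.58 and 1.45 FPKM against 0.471 and 0.377 FPKM (1.06, adjusted p = 0.0131). CCL20 passed the filter through its 48 h levels alone and so had to be higher. The neutrophil chemokine CXCL1 was at 3.25 and 2.42 FPKM against 8.11 and 8.0 FPKM (-1.25, adjusted p = 0.00273) and IL6 at 1.98 and 1.45 FPKM against 2.74 and 2.38 FPKM (-0.40, adjusted p = 0.0463). The calls of IFITM3, CCL20 and IL6 were lost without at least 1 library (highest adjusted p = 0.056, 0.0589 and 0.194), among them 48 h replicate 2 for IFITM3 and control replicate 1 for the others.

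Of 13 measured AP-1 and immediate early genes, 3 (23.1%) were lower and 1 (7.69%) was higher, with a median of -0.37. JUNB, a subunit of AP-1, was at 29.1 and 26.8 FPKM at 48 h against 54.5 and 56.0 FPKM in controls (-0.96, adjusted p = 0.0157), JUN at 25.8 and 30.5 FPKM against 43.5 and 39.2 FPKM (-0.54, adjusted p = 0.0267) and EGR3, a transcription factor induced by growth factors, at 0.122 and 0.154 FPKM against 2.46 and 1.06 FPKM (-1.23, adjusted p = 0.0112). EGR3 passed the filter through its control levels alone and so had to be lower. Of 13 measured ERK feedback genes, 4 (30.8%) were higher and 1 (7.69%) was lower, with a median of 0.17. The ERK phosphatases DUSP4 (0.80, adjusted p = 0.028) and DUSP6 (0.59, adjusted p = 0.0386), the ETS factor ETV4 (0.45, adjusted p = 0.0184) and PHLDA1 (0.61, adjusted p = 0.00309) were higher, and SPRED1, an inhibitor of RAS signalling, was lower (-0.48, adjusted p = 0.0314). Of 19 measured hypoxia and glycolysis genes, 7 (36.8%) were lower and 2 (10.5%) were higher, with a median of -0.24. VEGFA, the vascular growth factor, was at 10.1 and 7.26 FPKM against 5.44 and 4.08 FPKM (0.74, adjusted p = 0.0196), while the glycolytic enzyme ENO2 was at 2.94 and 1.8 FPKM against 6.79 and 5.95 FPKM (-1.15, adjusted p = 0.00481), the vasodilator peptide ADM at 12.5 and 13.3 FPKM against 21.4 and 21.1 FPKM (-0.68, adjusted p = 0.00343) and the carbonic anhydrase CA9 at 0.882 and 0.794 FPKM against 2.65 and 2.28 FPKM (-0.91, adjusted p = 0.0115). CA9 passed the filter through its control levels alone and so had to be lower. NDRG1, another hypoxia target, was lower by -0.99 (adjusted p = 0.0154). JUN, JUNB, DUSP4 and ETV4 lost their calls without any of the 4 libraries (highest adjusted p = 0.128, 0.0883, 0.139 and 0.0879), EGR3, DUSP6, SPRED1 and NDRG1 without either 48 h library (0.059, 0.158, 0.124 and 0.0747), VEGFA without control replicate 2 or 48 h replicate 1 (0.0842) and CA9 without control replicate 1 or 48 h replicate 2 (0.067).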
